A study of Arabidopsis thaliana with 18 samples.

Results

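The transcripts described here came from 54 nuclear genes for the photosynthetic apparatus, followed through 6 cell populations sorted from shoot apical meristems (SAM) of the Arabidopsis thaliana ap1cal mutant. The genes were taken by identifier. They comprise 14 LHCB and 6 LHCA antenna genes, 12 subunits of photosystem I and 10 of photosystem II, 4 RBCS genes, RCA, PRK, PETE1, PETE2, PETC, FNR1, GAPA and GAPB. Between 18651 and 22074 genes were tested, depending on the comparison. In all, 8444 genes appeared in at least 1 deposited table, and 51 of the 54 were among them.

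All plants were ap1cal, which forms masses of meristems in place of flowers, carried the same 3 reporters and received no treatment. About 50 SAMs of plants 4 to 5 weeks old were digested to protoplasts, from which living single cells, told by their lack of propidium iodide stain, were taken on a cell sorter. Subepidermal miR165a cells carried only the green pmiR165a::GFP-ER marker of the periphery, and subepidermal REV cells only the yellow pREV::REV-2YPET marker of the centre. Epidermal miR165a and epidermal REV cells carried the same markers together with the blue pAtML1::mTag-BFP-ER marker of the epidermis. Epidermal gap cells had the blue marker alone, and all negative cells had no marker, so that they are defined by what they lacked and can hold several cell types. There were 3 libraries per population and 18 in all. The methods and the design text call the libraries of a population biological replicates, of which the design text counts 4. Whether they came from separate harvests is not stated, and p-values measure the spread between these libraries.

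Photosynthesis begins when chlorophyll bound to LHCB and LHCA proteins absorbs light and passes the energy to photosystem II and photosystem I. Photosystem II takes electrons from water, the cytochrome complex and plastocyanin carry them to photosystem I, and ferredoxin-NADP reductase uses them to make NADPH. Rubisco and the other enzymes of the Calvin cycle then fix carbon dioxide. The genes studied here lie in the nucleus, and their products are imported into plastids. In the SAM, plastids are small and simply built, and they develop into chloroplasts as cells enter leaf and stem tissue.

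Each deposited table compared a pair of populations and listed a gene only where its log2 fold change (first population over second) was at least 1 in size and its adjusted p was 0.05 or less. A gene that is not listed missed at least 1 of those limits, which does not show that the populations were alike. Fold changes are on the log2 scale and given with the deposited standard error (SE). Values of single libraries and their depth are unknown here. In bulk RNA of this kind, fewer cells of a type and less RNA per cell cannot be told apart.

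The sorted layers carried their markers. All 4 epidermis genes (ATML1, PDF1, PDF2 and FDH) were higher in each of the 3 epidermal populations than in all negative cells, by 5.30 to 6.41. REV transcript was lower in miR165a than in REV cells, with a log2 fold change of -1.18 in the epidermis and -1.36 below it. MIR165A was in none of the tables, so these tables give no check of the green marker. Stomatal lineage and guard cell genes were higher than in all negative cells for 4 of 8 in epidermal miR165a, 2 of 8 in epidermal REV and 7 of 8 in epidermal gap cells. Of the phloem genes, APL and SUC2 were lower in all 3 epidermal populations than in all negative cells, with log2 fold changes between -4.67 and -2.76. Both were also lower in subepidermal miR165a than in all negative cells (APL -4.17 and SUC2 -3.85). In subepidermal REV over all negative cells SUC2 was lower (-3.62), while ATHB8 of the same list was higher (5.57). The part of stomatal and phloem cells in the members' differences was not tested.

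For members whose levels could be worked out, epidermal REV cells held the least transcript. Subepidermal miR165a cells, with all negative cells close behind, held the most. For 34 members the tables connected all 6 populations, and a level in normalised counts could be worked out for each population from the mean count and the fold changes. All 34 had their lowest level in epidermal REV cells and their highest in subepidermal miR165a cells, with all negative cells in the next place. The highest level was 3.53 to 12.8 times the lowest, with a median of 5.51. Relative to each gene's own mean, the median log2 level was 0.81 in subepidermal miR165a, -0.06 in subepidermal REV, -0.39 in epidermal miR165a, -1.59 in epidermal REV, -0.60 in epidermal gap and 0.57 in all negative cells. These 34 were each listed in at least 5 of the 15 comparisons, which needed large differences. The listings came largely from comparisons with epidermal REV or subepidermal miR165a cells. Both ends of the order were thus partly fixed by this selection. The levels, which have no SE of their own, are a description with no test. Neighbours in the order did not all differ beyond the tables' limits. LHCB4.3, a member without such levels, departed from this order. It was lower in subepidermal than in epidermal miR165a cells (-1.19). For subepidermal miR165a over all negative cells the deposited values imply -0.03 in PSBO1 and -0.07 in FNR1. Neither value was listed or has an SE, so they cannot show a departure. No member was listed between subepidermal miR165a and all negative cells, nor between epidermal miR165a and epidermal gap cells.

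**Figure D1:**
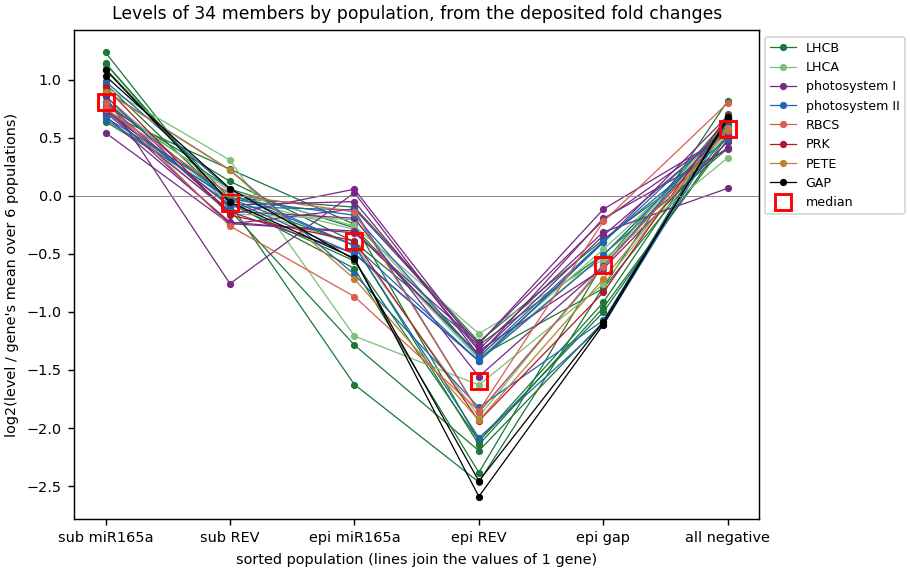
Levels of 34 members in the 6 sorted populations (horizontal axis), as log2 of the level over the gene's own mean (vertical axis), coloured by class, with red squares at the medians. Every line has its lowest point in epidermal REV cells, where the median is -1.59, and its highest in subepidermal miR165a cells, where the median is 0.81. The 34 were listed largely in comparisons with these populations, which partly fixed both ends.

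The counts of listed members followed the same order. Against epidermal REV cells, 49 of 54 members were higher in subepidermal miR165a cells (90.7%), whereas 15.4% of the 20703 genes tested were. In epidermal REV cells 47 of 54 (87.0%) were lower than in all negative cells, against 15.4% of all genes, and subepidermal REV cells exceeded epidermal REV cells in 38 of 54 (70.4%), against 13% of all genes. No member was listed in the opposite direction in these 3 comparisons, which share the epidermal REV libraries or the all negative libraries with others below.

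**Figure D2:**
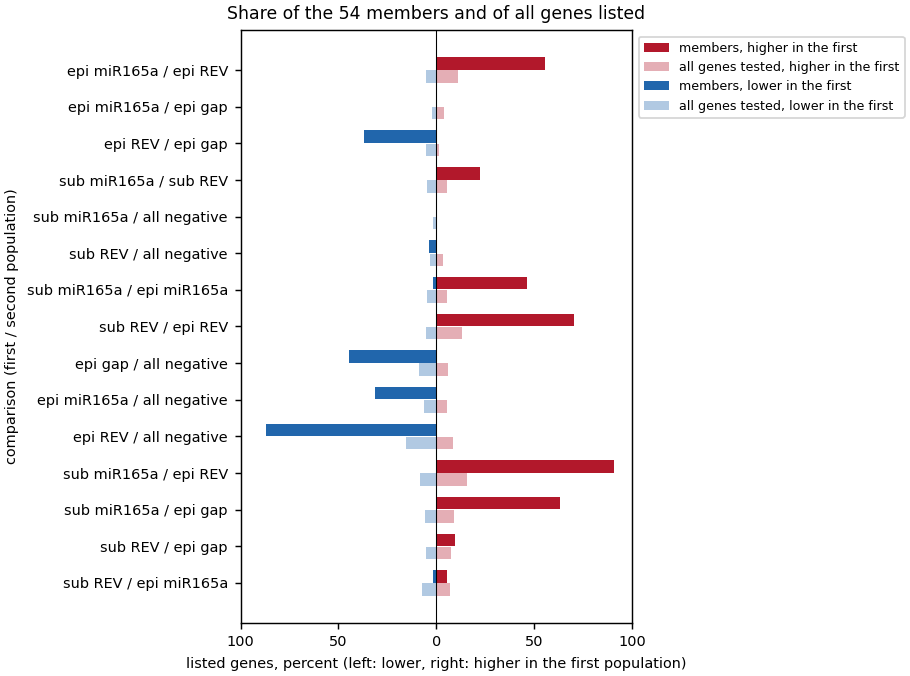
Percent of the 54 members (dark bars) and of all genes tested (pale bars) listed as higher (right of 0) or lower (left of 0) in the first-named population, for 15 comparisons. The longest member bars, 90.7% and 87.0%, belong to comparisons with epidermal REV cells, and 2 comparisons have no member bar.

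The antenna of photosystem II varied widely. LHCB1 and LHCB2 genes encode the main trimeric antenna, LHCII, and LHCB4, LHCB5 and LHCB6 encode the minor antenna proteins that link it to the core. Of the 14 LHCB genes, 11 were lower in epidermal REV than in all negative cells, with a median of -2.63, against -1.88 for all genes listed as lower. LHCB2.3 had levels of 218 in subepidermal miR165a, 94.5 in subepidermal REV, 32.2 in epidermal miR165a, 17.96 in epidermal REV, 57.5 in epidermal gap and 175 in all negative cells. Its level in epidermal REV cells was below all the others, and its log2 fold change for epidermal REV over all negative cells, -3.28 ± 0.24 (adjusted p = 1.9e-39), was the largest fall of any member there. LHCB1.3, the most abundant listed LHCB1 copy per kb of exon, had levels of 3075.5 in subepidermal miR165a, 1417 in subepidermal REV, 1073 in epidermal miR165a, 326 in epidermal REV, 740 in epidermal gap and 2019 in all negative cells. Its log2 fold change for epidermal REV over all negative cells was -2.63 ± 0.18 (adjusted p = 3.61e-45). LHCB5 changed less, at -1.67 ± 0.09 (adjusted p = 5.93e-68), and LHCB6 was listed only as higher in subepidermal miR165a than in epidermal REV cells, at 1.12 ± 0.13.

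LHCB4.3 went against the other antenna genes between the layers. It encodes a variant of the minor antenna protein CP29. It was lower in subepidermal miR165a than in epidermal miR165a cells (log2 fold change -1.19 ± 0.18, adjusted p = 2.54e-09), where 25 other members were higher, and lower in subepidermal REV than in epidermal miR165a cells (-1.32 ± 0.18, adjusted p = 2.03e-11). Within the epidermis it moved like the rest, higher in miR165a than in REV cells by 1.48 ± 0.21 (adjusted p = 1.09e-10). It was not listed between epidermal REV and all negative cells. The tables imply log2 fold changes of 0.28 for subepidermal miR165a and 0.15 for subepidermal REV over epidermal REV cells. Its copy LHCB4.2 was higher in subepidermal miR165a than in epidermal miR165a cells by 1.17 ± 0.23 (adjusted p = 4.83e-06).

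The bases before the starts of some antenna genes are shown here, namely the LHCB2 copies, LHCB4.2 and LHCB4.3. LHCB2.1, LHCB2.2 and LHCB2.3 all fell in epidermal REV over all negative cells (-3.05, -2.90 and -3.28). They did not move alike elsewhere. Of these copies only LHCB2.1 was listed as higher in epidermal miR165a than in epidermal REV cells (1.83). LHCB4.2 and LHCB4.3 went opposite ways between the layers of the miR165a domain. Each sequence is the 250 bases upstream of the annotated gene start in the RefSeq annotation of TAIR10.1, read 5′ to 3′ on the gene's strand. The positions are chr2:1824481-1824730 (minus strand) for LHCB2.1, chr2:1800473-1800722 (minus) for LHCB2.2, chr3:10255656-10255905 (plus) for LHCB2.3, chr3:2717307-2717556 (plus) for LHCB4.2 and chr2:16745378-16745627 (plus) for LHCB4.3. Capitals mark the letters GATAAG (I-box), CACGTG (G-box) and CCAATC, searched on both strands. The genes were picked after their values had been seen.
LHCB2.1: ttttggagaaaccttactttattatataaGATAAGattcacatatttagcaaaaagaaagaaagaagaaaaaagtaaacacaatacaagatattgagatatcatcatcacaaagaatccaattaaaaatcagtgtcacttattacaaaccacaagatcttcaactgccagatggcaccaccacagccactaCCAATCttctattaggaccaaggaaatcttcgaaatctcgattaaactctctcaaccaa
LHCB2.2: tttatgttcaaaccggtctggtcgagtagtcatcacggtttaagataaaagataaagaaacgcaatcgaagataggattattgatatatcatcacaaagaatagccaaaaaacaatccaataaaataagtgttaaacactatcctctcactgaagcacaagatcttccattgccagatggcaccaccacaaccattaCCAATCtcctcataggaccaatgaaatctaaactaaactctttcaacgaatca
LHCB2.3: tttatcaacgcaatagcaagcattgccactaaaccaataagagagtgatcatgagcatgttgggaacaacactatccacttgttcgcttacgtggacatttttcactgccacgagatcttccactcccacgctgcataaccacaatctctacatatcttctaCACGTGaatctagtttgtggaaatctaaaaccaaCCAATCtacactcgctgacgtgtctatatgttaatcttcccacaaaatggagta
LHCB4.2: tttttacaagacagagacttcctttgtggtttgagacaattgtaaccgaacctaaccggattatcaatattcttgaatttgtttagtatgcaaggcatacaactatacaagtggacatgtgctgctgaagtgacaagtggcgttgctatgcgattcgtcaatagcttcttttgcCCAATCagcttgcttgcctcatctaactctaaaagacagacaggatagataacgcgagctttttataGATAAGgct
LHCB4.3: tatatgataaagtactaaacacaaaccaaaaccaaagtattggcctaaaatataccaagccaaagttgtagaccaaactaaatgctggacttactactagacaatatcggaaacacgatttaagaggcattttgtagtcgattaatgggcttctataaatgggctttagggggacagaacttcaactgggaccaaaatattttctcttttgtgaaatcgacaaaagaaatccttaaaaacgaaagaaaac

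CCAATC stood 59, 53 and 54 bases before the start in LHCB2.1, LHCB2.2 and LHCB2.3, counted to its first base, and 76 bases before the start in LHCB4.2, while the LHCB4.3 window held none of the 3 motifs. Over all windows of this length, CCAATC was found in 7 of 14 LHCB genes, in 3 of 6 LHCA genes and in none of the 12 photosystem I subunits, against 10.2% of 27437 protein-coding genes. For all 54 members the shares were 25.9% for CCAATC, 25.9% for the I-box (12.3% of all genes) and 18.5% for the G-box (6.49% of all genes). At least 1 of the motifs was present in 24 members and none in 30, among them GAPA and GAPB. A match is a description of these letters and not evidence of a bound factor. LHCB1.1, LHCB1.2 and LHCB1.3 lie side by side on chromosome 1 between 10472280 and 10479114, and LHCB1.4 and LHCB1.5 on chromosome 2 between 14522524 and 14525918.

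The LHCA genes, the antenna of photosystem I, were lower in epidermal REV than in all negative cells for 6 of 6, with a median of -1.93. LHCA3 had levels of 1122 in subepidermal miR165a, 589 in subepidermal REV, 463 in epidermal miR165a, 166 in epidermal REV, 412 in epidermal gap and 965 in all negative cells, and a log2 fold change of -2.54 ± 0.20 (adjusted p = 2.15e-33) for epidermal REV over all negative cells. LHCA6, a minor member that in Arabidopsis helps photosystem I to bind the NDH complex of cyclic electron flow, had a mean count of 28.4, and its fold changes had wide errors (-2.22 ± 0.44). It was 1 of 3 members higher in subepidermal REV than in epidermal miR165a cells (1.51 ± 0.45, adjusted p = 0.00517), with LHCB2.2 and LHCB2.3.

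Photosystem I subunits were lower in epidermal REV than in all negative cells for 12 of 12, but by less than the antenna genes, with a median of -1.79 and a range from -2.13 in PSAD2 to -1.02 in PSAE2. PSAD1, which helps to form the docking site for ferredoxin, had levels of 853 in subepidermal miR165a, 453 in subepidermal REV, 425 in epidermal miR165a, 220 in epidermal REV, 458 in epidermal gap and 772 in all negative cells. Its log2 fold change for epidermal REV over all negative cells was -1.81 ± 0.12 (adjusted p = 1.49e-52). PSAH2, a subunit at the site where LHCII attaches, had levels of 206 in subepidermal miR165a, 67.4 in subepidermal REV, 116 in epidermal miR165a, 43.9 in epidermal REV, 99.4 in epidermal gap and 151 in all negative cells. Both PSAH2 and PSAH1 thus had a lower level in subepidermal REV than in epidermal miR165a and in epidermal gap cells. Among the 34 members with levels, PSAN and PSAO shared the first of these orders and PSAD1 and RBCS3B the second, and none of these differences was listed. PSAH2 was 1 of 2 members listed between subepidermal REV and all negative cells (-1.16 ± 0.20, adjusted p = 3.01e-07), and it had the largest fold change of any member for subepidermal miR165a over subepidermal REV (1.63 ± 0.24, adjusted p = 3.42e-10).

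Photosystem II subunits were lower in epidermal REV than in all negative cells for 8 of 10, with a median of -2.01. The subunits in question include the extrinsic proteins that shield the site of water oxidation (PSBO, PSBP, PSBQ) and PSBS, which triggers the safe loss of excess light energy. PSBS had levels of 895 in subepidermal miR165a, 498 in subepidermal REV, 488 in epidermal miR165a, 146 in epidermal REV, 347 in epidermal gap and 812 in all negative cells, and a log2 fold change of -2.48 ± 0.18 (adjusted p = 1.1e-41) for epidermal REV over all negative cells. PSBP1 and PSBX were listed in a single comparison, subepidermal miR165a over epidermal REV, at 1.04 ± 0.09 and 1.21 ± 0.15, and PSBP1 lay closest of all 49 to the fold limit.

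Copies of the same subunit did not change by the same amount. In epidermal REV over all negative cells PSBO2 had a log2 fold change of -2.48 ± 0.40 and PSBO1 -1.30 ± 0.12. PSAE1 had -2.11 ± 0.24 and PSAE2 -1.02 ± 0.16, while PSBQ2 had -2.71 ± 0.33 and PSBQ1, listed as PSBQA in RefSeq, -1.998 ± 0.14. The pairs of PSAD, PSAE, PSAH, PSBO and PSBQ were compared by abundance. In 4 of these 5 the copy with the lower mean count per kb of exon had the larger fall. An example is PSBO2 with 102 per kb against PSBO1 with 1118 per kb. PSAH1 and PSAH2, with -1.80 and -1.78, were the exception. The LHCB and RBCS families were left out, and their copies went both ways. LHCB1.1 (33.7 per kb) fell by less than LHCB1.3 (1172 per kb), with -1.09 against -2.63. RBCS2B (26.1 per kb) fell by less than RBCS1A (1757 per kb), with -1.50 against -2.42. LHCB2.3, the LHCB2 copy with the lowest count per kb (67.7), had the largest fall of its family. The differences between copies were not tested. Over the 47 members listed there, the Spearman correlation of count per kb with log2 fold change was 0.31, over genes that share the same libraries.

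**Figure D3:**
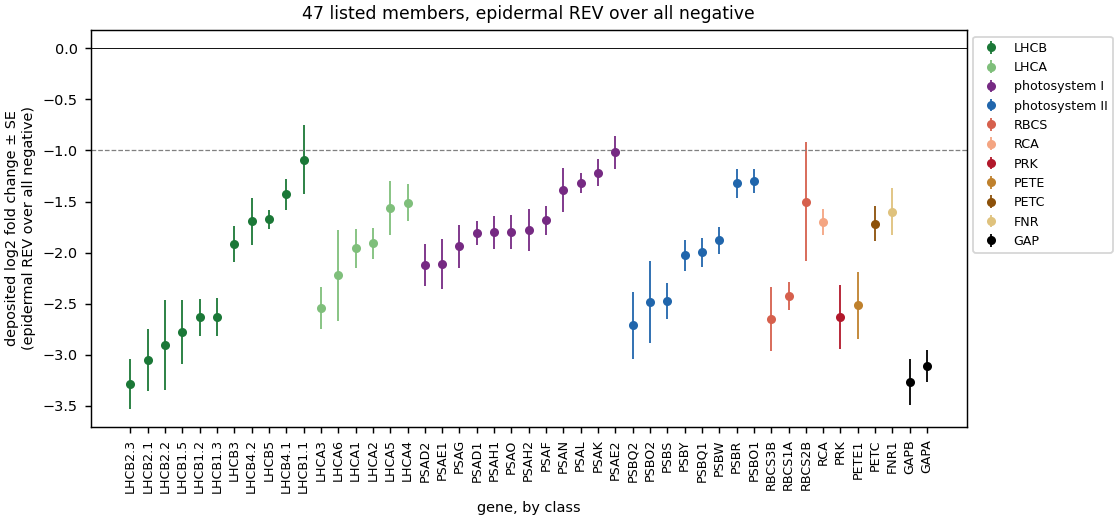
Deposited log2 fold change with its SE (vertical axis) for epidermal REV over all negative cells, for the 47 listed members grouped and coloured by class (horizontal axis). The dashed line is the fold limit at -1, and values run from -3.28 in LHCB2.3 to -1.02 in PSAE2, the lowest points lying among LHCB2 and GAP genes.

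Electron carriers fell as well. PETE1, a plastocyanin gene, had levels of 146 in subepidermal miR165a, 91.2 in subepidermal REV, 47.7 in epidermal miR165a, 20.5 in epidermal REV, 47.6 in epidermal gap and 117 in all negative cells, and a log2 fold change of -2.51 ± 0.33 (adjusted p = 3.82e-13) for epidermal REV over all negative cells. The other plastocyanin gene, PETE2 (AT1G20340), was in none of the tables. PETC, the Rieske protein of the cytochrome complex, had -1.72 ± 0.17 and FNR1, a ferredoxin-NADP reductase, -1.60 ± 0.23 in that comparison.

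Among genes of carbon fixation, GAPA and GAPB, the subunits of the chloroplast glyceraldehyde-3-phosphate dehydrogenase that uses NADPH in the Calvin cycle, had some of the widest ranges. GAPB (AT1G42970) had levels of 705 in subepidermal miR165a, 320 in subepidermal REV, 229 in epidermal miR165a, 55.2 in epidermal REV, 154 in epidermal gap and 530 in all negative cells. The level was 12.8 times as high in subepidermal miR165a as in epidermal REV cells, and the deposited log2 fold change was 3.67 ± 0.22 (adjusted p = 4.79e-59), the highest of any member in any main comparison. GAPA (AT3G26650) had 1567 in subepidermal miR165a, 800.2 in subepidermal REV, 524 in epidermal miR165a, 140 in epidermal REV, 362 in epidermal gap and 1208 in all negative cells, with a log2 fold change of 3.49 ± 0.16 for subepidermal miR165a over epidermal REV (adjusted p = 2.38e-104). PRK, which makes the acceptor of carbon dioxide, had 355 in subepidermal miR165a, 165 in subepidermal REV, 142 in epidermal miR165a, 48.4 in epidermal REV, 104 in epidermal gap and 299.5 in all negative cells. RCA, the activase of Rubisco, was lower in epidermal REV than in all negative cells by a log2 fold change of -1.70 ± 0.13 (adjusted p = 6.68e-38).

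RBCS genes encode the small subunit of Rubisco. RBCS1A (AT1G67090) had the highest mean count of all listed members, 2228, and levels of 3744 in subepidermal miR165a, 2245 in subepidermal REV, 2023 in epidermal miR165a, 612 in epidermal REV, 1460 in epidermal gap and 3283 in all negative cells. Per kb of exon it came second with 1757, after PSBR with 1824. RBCS3B had 337 in subepidermal miR165a, 161 in subepidermal REV, 106 in epidermal miR165a, 53.5 in epidermal REV, 166 in epidermal gap and 336 in all negative cells. RBCS2B, with a mean count of 24.4, was listed in 1 comparison only (epidermal REV over all negative, -1.50 ± 0.58, adjusted p = 0.024), and RBCS1B was in none. RBCS1B and RBCS3B share an identical run of 230 coding bases and RBCS1B and RBCS2B one of 89. These 3 genes lie next to each other on chromosome 5 between 15376988 and 15385320. The LHCB1 copies share runs of 35 to 122 bases, and LHCB1.4, the antenna gene in no table, shares 122 with LHCB1.5. Reads that fit several copies may have been dropped or split in the authors' counting, so values of single LHCB1, LHCB2 and RBCS copies are uncertain.

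Within the epidermis, the miR165a domain held more of these transcripts than the REV domain. In epidermal miR165a cells 30 of 54 members (55.6%) were higher than in epidermal REV cells and none was lower, against 11.2% of all genes listed as higher. The median of the 30 was 1.34, below the 1.86 of all genes listed as higher. GAPB was highest at 2.102 ± 0.29 (adjusted p = 5.08e-12), followed by LHCB1.5 at 1.95 ± 0.30 (adjusted p = 9.67e-10) and GAPA at 1.93 ± 0.21 (adjusted p = 1.05e-17). PSBY, at 1.01 ± 0.22, was the lowest of those listed. Of the wounding and heat genes, VSP1, JAZ1 and HSP101 (3 of 4) were also higher in epidermal miR165a than in epidermal REV cells, VSP1 by 3.83 and HSP101 by 1.87. Of the shoot meristem genes 3 of 4 were lower there (STM -1.78, CLV3 -7.04 and LFY -2.30), and of the stomatal lineage and guard cell genes 3 of 8 were higher (SPCH 2.28, TMM 1.77 and MUTE). The part of these markers in the members' difference was not tested. In epidermal REV cells 20 members (37.0%) were lower than in epidermal gap cells, against 5.12% of all genes, led by LHCB2.1 at -1.80 ± 0.31 (adjusted p = 3.31e-07) and LHCB2.3 at -1.68 ± 0.26 (adjusted p = 4.45e-09). Of the stomatal lineage and guard cell genes 6 of 8 were lower in epidermal REV than in gap cells too, as was HSP101 (-1.24), while CLV3 (3.70) and LFY (1.13) were higher. Their part was not tested. Between epidermal miR165a and epidermal gap cells no member was listed, while 5.79% of all genes were. For the 34 members with an implied value, the log2 fold change of epidermal miR165a over gap cells ran from -0.84 in LHCB2.3 to 0.68 in PSBQ2 with a median of 0.24, and 26 were above 0.

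Below the epidermis fewer members were listed between the same domains. In the subepidermal miR165a domain 12 of 54 members (22.2%) were higher than in the REV domain, against 5.26% of all genes, with a median of 1.14. The 12 were LHCB1.2, LHCB1.3, LHCB2.1, LHCB2.2, LHCB2.3, PSAG, PSAH2, PSAK, PSAN, RBCS3B, PRK and GAPB. LHCB1.2 had 1.22 ± 0.15 (adjusted p = 2.83e-15) and LHCB2.2 had 1.48 ± 0.22 (adjusted p = 6.47e-10). The 41 members with an implied value were all above 0, between 0.13 and 1.61. Such values exist only where other comparisons listed the member, and all rest on the same libraries, so the shared sign is a description. In the same comparison all 4 shoot meristem genes were lower in miR165a cells (STM -1.49, CLV3 -2.57, WUS -3.09 and LFY -1.32), as were 2 of 3 phloem and procambium genes (APL -3.71 and ATHB8 -5.37). Their part in the members' difference was not tested. In subepidermal REV cells only PSAH2 and RBCS3B (-1.06 ± 0.30, adjusted p = 0.00567) were lower than in all negative cells, 3.70% of the members against 3.45% of all genes. No member was listed between subepidermal miR165a and all negative cells, where 2.07% of all genes were, and the implied values of 46 members had a median of 0.23 and ran from -0.07 to 0.79.

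Between layers of the same domain, subepidermal cells had the higher values. In subepidermal miR165a cells 25 members (46.3%) were higher than in epidermal miR165a cells, against 5.17% of all genes, and LHCB4.3 alone was lower, against 4.85% of all genes. Of the stomatal lineage and guard cell genes 5 of 8 were lower in subepidermal than in epidermal miR165a cells (TMM -2.54 to SPCH -5.52), and so was VSP1 (-1.80). Among the members LHCB2.3 led with 2.76 ± 0.23 (adjusted p = 1.5e-30), followed by LHCB2.2 with 2.52 ± 0.44 (adjusted p = 1.53e-07). In the REV domain the 38 members higher in subepidermal than in epidermal cells had a median of 1.43, with GAPB at 2.53 ± 0.22 (adjusted p = 1.14e-27) and GAPA at 2.52 ± 0.16 (adjusted p = 1.06e-53). VSP1, JAZ1 and HSP101 were higher in subepidermal REV than in epidermal REV cells as well (VSP1 by 1.61), and so were APL (3.12) and ATHB8 (4.70). CLV3 (-2.97) and 4 of 8 stomatal lineage and guard cell genes were lower. The part of these markers in both layer comparisons was not tested.

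Against all negative cells, 17 members (31.5%) were lower in epidermal miR165a and 24 (44.4%) in epidermal gap cells, where 6.13% and 8.81% of all genes were. LHCB2.3 had -2.44 ± 0.23 in epidermal miR165a (adjusted p = 8.13e-24) and -1.60 ± 0.19 in epidermal gap cells (adjusted p = 6.48e-15). The comparisons across both layer and domain gave 34 members (63.0%) higher in subepidermal miR165a than in epidermal gap cells, against 8.82% of all genes. There 7 of 8 stomatal lineage and guard cell genes were lower, and their part was not tested. The comparisons also gave 5 members (9.26%) higher in subepidermal REV than in epidermal gap cells, against 7.44% of all genes, namely GAPA, GAPB, LHCB1.5, PSBQ2 and PSBO2. Between subepidermal REV and epidermal miR165a cells 3 members were higher (5.56%, against 7.1% of all genes) and 1, LHCB4.3, was lower (1.85%, against 7.33%), shares near or below those of all genes.

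**Figure D4:**
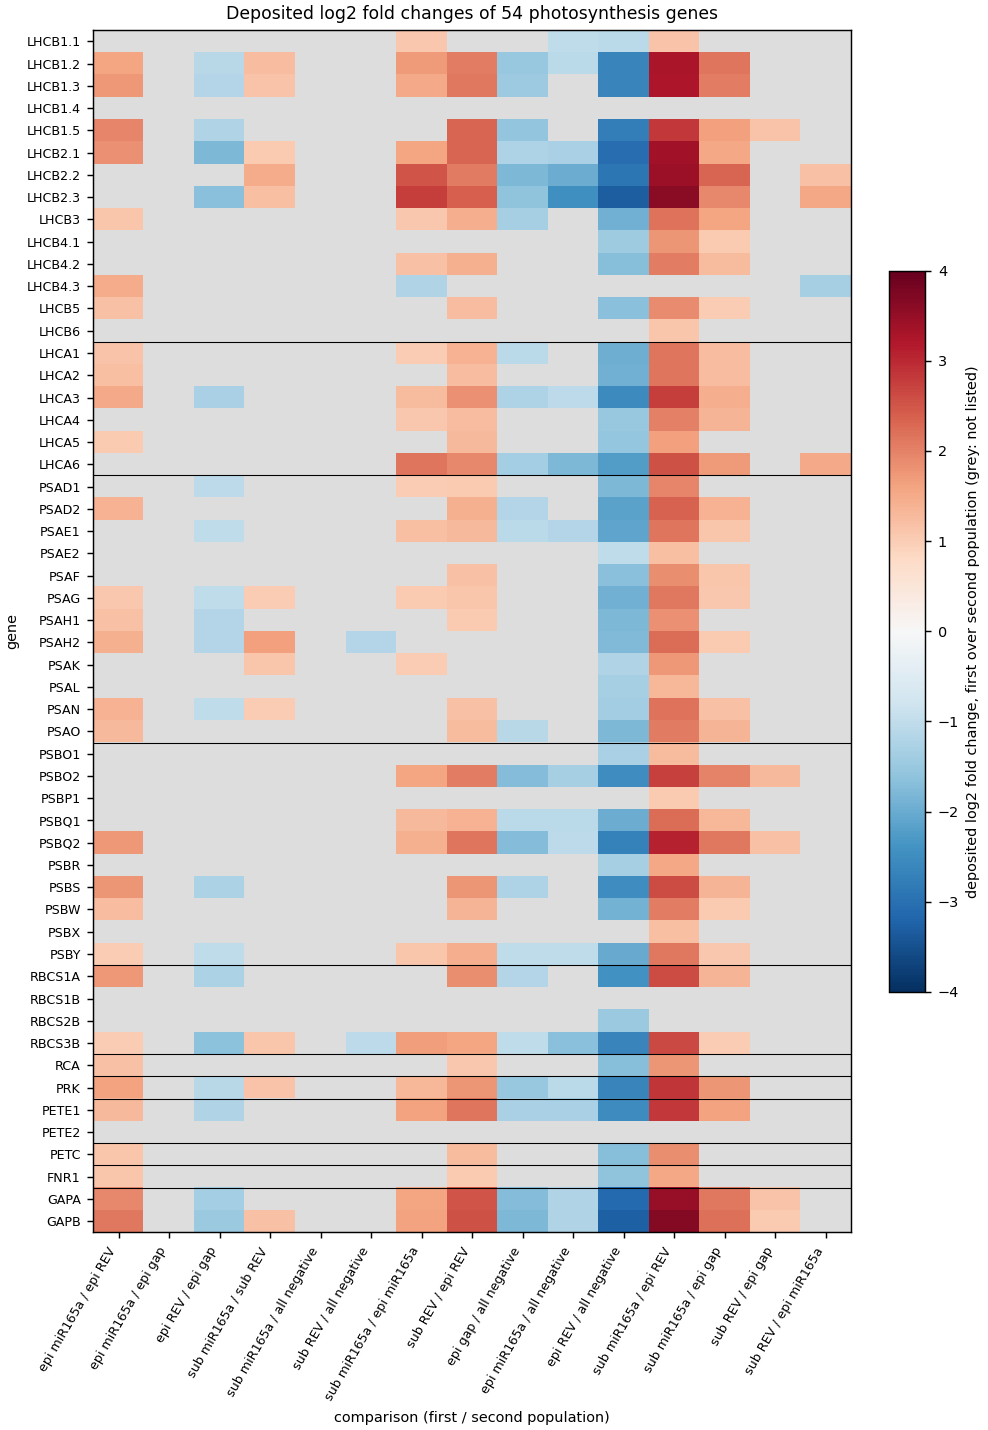
Deposited log2 fold change of each of the 54 members (rows, by class) in 15 comparisons (columns, first over second population), red for higher and blue for lower in the first, grey where not listed. LHCB4.3 is the only row with blue in the columns of subepidermal over epidermal miR165a cells and of subepidermal REV over epidermal miR165a cells, and LHCB1.4, RBCS1B and PETE2 are grey throughout.

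Whether the difference between domains was itself larger in a layer was tested gene by gene with a z statistic (two-sided), the difference of both fold changes over its SE, from the fit on 6 populations and with Benjamini-Hochberg adjustment over all genes that had both values. For miR165a over REV, 23 members had both values, and the difference was larger in the epidermis for 6 of them (26.1%), against 36.6% of the 2269 genes. RBCS1A had 1.72 ± 0.13 in the epidermis and 0.74 ± 0.13 below it, a difference of 0.99 ± 0.19 (adjusted p = 1.25e-06). LHCB1.5 had 1.86 ± 0.31 and 0.48 ± 0.31, a difference of 1.38 ± 0.44 (adjusted p = 0.00457). GAPA, GAPB, PSBS and LHCB1.3 were the others, by 0.60 to 0.94. For REV over marker-free cells (epidermal gap in the epidermis, all negative below it), 7 of 23 (30.4%) fell further in the epidermis, against 23.7% of 1903 genes. All 23 differences were below 0, with a median of -0.54. The 1903 genes leaned the same way, with a median of -0.36. For miR165a over marker-free cells LHCB2.3 alone differed (4.35% of 23, against 11.6% of 1803 genes), by -1.16 ± 0.30 (adjusted p = 0.000999). Genes had both values only where enough tables listed them. The share of members called was below that of all genes in both miR165a contrasts. It was above that share for REV over marker-free cells. These differences in share were not tested.

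**Figure D5:**
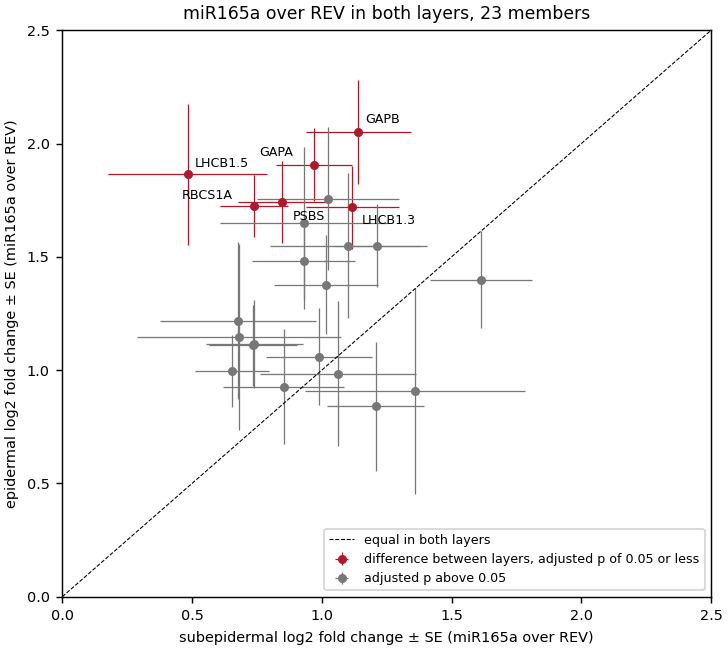
Log2 fold change of miR165a over REV cells below the epidermis (horizontal axis) and in the epidermis (vertical axis) for 23 members, with SEs. Red points are the 6 members with a difference between layers, all above the dashed line of equal values.

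Genes that work beside the members were counted from lists chosen by function. In epidermal REV over all negative cells 15.4% of all genes were lower. Of 13 genes of chlorophyll synthesis 7 were lower there, among them CRD1 (-1.59) and HEMA1 (-1.05). That list had at most 1 gene called in every other comparison except subepidermal miR165a over epidermal REV, where 8 were higher. Of the photorespiration genes 6 of 8 were lower in epidermal REV than in all negative cells. So were 6 of 8 in epidermal gap and 4 of 8 in epidermal miR165a cells, where 8.81% and 6.13% of all genes were. In epidermal REV over all negative cells the glycolate oxidases fell beyond any member, GOX1 at -3.59 ± 0.26 (adjusted p = 9.06e-41) and GOX2 at -3.97 ± 0.33 (adjusted p = 8.62e-32). GOX1 and GOX2 are neighbouring copies, so reads may have been split between them. Of 6 genes of chlorophyll breakdown SGR1 (-1.93) and NYC1 (-1.18) were lower and CLH1 (1.15) higher. FBA2, an aldolase of the Calvin cycle, had -3.80 ± 0.27 (adjusted p = 3.21e-44), and 5 of 10 other Calvin cycle genes and 6 of 10 genes of ATP synthase, ferredoxin and cyclic flow were lower. None of 5 genes of plastid protein import was listed in any table. Light-harvesting-like proteins made under stress went the other way, ELIP1 and ELIP2 being higher in epidermal REV than in all negative cells by 1.31 and 1.58, where 8.68% of all genes were higher, while OHP1 was lower (-1.25). CA1, a carbonic anhydrase, was higher in epidermal miR165a than in epidermal REV cells (2.48), and lower in subepidermal miR165a than in epidermal miR165a cells (-1.40), against the direction of the members there.

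Transcription factors that control chloroplast genes were also counted. GLK1 and GLK2 activate antenna and chlorophyll genes, and GNC and GNL are GATA factors that promote greening. In epidermal REV over all negative cells GLK1 had a log2 fold change of -3.73 ± 0.55 (adjusted p = 1.42e-10) and GLK2 -2.08 ± 0.24 (adjusted p = 3.1e-17), with GNC at -2.89, GNL at -2.42 and SIG6 at -1.12, while PIF1, which represses greening in the dark, was higher at 1.37. These made 5 of 11 regulators lower and 1 higher, where 15.4% of all genes were lower and 8.68% higher. All 6 were named after their values had been seen. The counts were not particular to epidermal REV cells. Against all negative cells, 4 of 11 were lower and 1 higher in epidermal gap and likewise in epidermal miR165a cells. In subepidermal REV cells 4 were lower. Of all genes 8.81%, 6.13% and 3.45% were lower in these comparisons. GLK1 was higher in subepidermal miR165a than in epidermal REV cells by 4.83 ± 0.55 (adjusted p = 2.18e-17) and than in subepidermal REV cells by 3.76 ± 0.48 (adjusted p = 4.84e-13). GLK1 and GLK2 were not listed between epidermal miR165a and epidermal REV cells, where 30 members were, and both were lower in subepidermal REV than in all negative cells (GLK1 -2.32 ± 0.51, adjusted p = 0.000109, and GLK2 -1.64 ± 0.23, adjusted p = 1.44e-10).

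In the comparison of epidermal REV with all negative cells other markers differed too, some of them in the direction opposite to the members. CLV3 and LFY of 4 shoot meristem genes were higher in epidermal REV cells, by 4.95 and 1.18, and VSP1, JAZ1 and HSP101 of 4 wounding and heat genes were lower, with log2 fold changes of -1.75, -1.31 and -2.09. Their part in the members' fall was not tested.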

How the data were processed

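The authors sorted protoplasts of 6 SAM populations, made libraries with a kit not stated to mark strand, checked reads (FastQC), trimmed adapters (cutadapt), mapped to TAIR10 (TopHat), counted reads in exons (HTSeq) and compared populations (DESeq2). Versions are not given in the sources used here. The deposited signal is a mean normalised count per gene, scaled for depth by the authors' DESeq2 run. The deposited log2 fold changes and their SEs are the authors' model estimates, and the p-values and adjusted p-values are those of the authors' test. Because only these columns of the authors' comparisons were used, tests between populations are theirs. Labels give short days and the methods continuous light.

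All 19 tables held only genes past both limits, 1 for the size of the log2 fold change and 0.05 for the adjusted p. In 15, from 1 fit on 6 populations, no SE exceeded 0.729, and no source used here says whether estimates were shrunken. The other 4 came from fits on 2 populations, with SEs up to 1.55, and 2 of them served for miR165a over REV. Fold changes of members left out in turn were recovered from the other tables for 208 values, and SEs for 192 within 0.082%, so values implied by the tables were used where they fixed a pair. The number of genes tested, 18651 to 22074, was recovered as the largest ratio of adjusted p to p, which gave whole ranks within 0.001 for 79.7% to 93.6% of listed genes. Levels are the mean count shared out by the fold changes.

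Lengths, positions and sequences came from RefSeq's TAIR10.1, since the tables hold no coordinates. Windows of 250 bases before gene starts and alignments of the longest coding sequence per gene (Biopython 1.88) were used with scipy 1.17.1.

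Members and lists were chosen with earlier results of these data known. Genes were named by class (smallest adjusted p, highest and lowest fold change or count, members against the majority, members in no table), and from other lists by smallest adjusted p. Further genes were named after their values had been seen. Alternatives were a log2 limit of 1.5, an adjusted p limit of 0.001, a mean count of at least 100, leaving out LHCB1, LHCB2 and RBCS, the reverse tables, values listed in both tables only, and SEs 25% wider in the layer test.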

Additional observations from a re-analysis of the deposited data

Results flagged for a closer look

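The difference between domains differed between layers, by the z test on deposited fold changes, for these members (epidermal minus subepidermal log2 fold change). For miR165a over REV it was 0.60 in LHCB1.3, 0.91 in GAPB, 0.90 in PSBS, 0.99 in RBCS1A, 1.38 in LHCB1.5 and 0.94 in GAPA. For miR165a over marker-free cells it was -1.16 in LHCB2.3. For REV over marker-free cells it was -0.67 in LHCB1.3, -0.75 in GAPB, -0.71 in RBCS1A, -1.08 in LHCB2.1, -0.78 in GAPA, -0.79 in LHCB2.3 and -0.79 in PSAN. In this order of contrasts 26.1%, 4.35% and 30.4% of the 23 members with both values were called. Of all genes with both values, 36.6%, 11.6% and 23.7% were called in the same direction. Genes had both values only where enough tables listed them. The 3 contrasts share libraries.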

How the results depend on the processing

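No paired analysis was possible because the tables hold no values of single libraries, and for the same reason no library could be left out. Of 134 counts under other settings 64 started from 0 and say nothing of stability, since most settings only remove members. Of the other 70, 45 stayed within 1.5 times their value and 25 did not. Shares of all genes under these settings are not given here. The counts thus cannot show whether members dropped out more than other genes. With a log2 limit of 1.5 the members higher were 11 in epidermal miR165a over epidermal REV, 1 in subepidermal miR165a over subepidermal REV, 11 in subepidermal miR165a over epidermal miR165a, 17 in subepidermal REV over epidermal REV, 14 in subepidermal miR165a over epidermal gap and 0 in subepidermal REV over epidermal gap. The members lower were 3 in epidermal REV over epidermal gap, 0 in subepidermal REV over all negative, 0 in subepidermal miR165a over epidermal miR165a, 9 in epidermal gap over all negative, 4 in epidermal miR165a over all negative and 0 in subepidermal REV over epidermal miR165a. Without LHCB1, LHCB2 and RBCS, which left 42 members, 13 were lower in epidermal REV over gap, 11 in epidermal miR165a over all negative and 1 in subepidermal REV over all negative, and 6 were higher in subepidermal miR165a over subepidermal REV and 1 in subepidermal REV over epidermal miR165a. With an adjusted p limit of 0.001, 1 was lower in subepidermal REV over all negative, 2 were higher in subepidermal REV over gap and 1 in subepidermal REV over epidermal miR165a, and at a mean count of at least 100 the last was 0. Among values listed in both tables only, the layer test called 1 of 7 members for miR165a over REV and 0 of 2 for REV over marker-free cells, and had 0 members to test for miR165a over marker-free cells. With SEs 25% wider it called 2 for REV over marker-free cells. The reverse tables, from the other fit, shared 28, 20, 11 and 2 of the 30, 20, 12 and 2 members called.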
